A study of Mus musculus with 6 samples.

Results

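The genes of MHC class II antigen presentation were followed through 6 mouse libraries of sorted intestinal ILC3s. They are the 10 genes H2-Aa, H2-Ab1, H2-Eb1, H2-DMa, H2-DMb1, H2-DMb2, H2-Oa, H2-Ob, Cd74 and Ciita, chosen by symbol, and all 10 are among the 25075 symbols of the deposited count table. All 10 passed the filter on low counts, as did 15261 symbols in all. ILC3s are group 3 innate lymphoid cells, lymphocytes of mucosal tissue without rearranged antigen receptors. Each sample held 2000 small-intestinal cells sorted as lineage-negative, CD90.2-positive and KLRG1-negative, and 2 ng of RNA went into Smart-seq2, a full-length cDNA method. All mice were on the b6 background and carried floxed Batf (Batf fl/fl). Batf encodes an AP-1 family factor. The 3 labelled control samples lacked PLZF-Cre, and the 3 labelled Batf-deficient samples carried it. PLZF-Cre ties deletion to cells that express, or descend from cells that expressed, PLZF, the product of Zbtb16, so it need not reach every sorted cell. No treatment, age, sex or time is given in the labels used here.

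MHC class II molecules are pairs of an alpha and a beta chain that show peptides from endosomes to CD4 T cells. In the mouse they are I-A, made from H2-Aa and H2-Ab1, and I-E, made from H2-Ea and H2-Eb1; C57BL/6 mice carry a defective H2-Ea and make no I-E at the surface. The invariant chain, encoded by Cd74, fills the groove during assembly. H2-DM (H2-DMa with H2-DMb1 or H2-DMb2) then exchanges the remaining fragment for peptides, and H2-DO (H2-Oa with H2-Ob) restrains H2-DM. Ciita encodes the coactivator on which transcription of the other genes depends; it is brought to their promoters by the RFX, CREB and NF-Y factors. In the intestine B cells, dendritic cells and macrophages carry class II, epithelial cells can do so, and CCR6+ lymphoid tissue inducer-like ILC3s are known to present antigen through it.

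The promoters show what most of these genes share in sequence. RefSeq entries (GRCm38.p6, 250 bases before to 50 after a start site) were matched for 7 of the 10 genes. The letters GATTGG, the core of the Y box that NF-Y binds, were searched on both strands, as was a longer string that lies at the X box, bound by RFX and CREB: AAC, any 3 letters, then TGATG. The longer string was written after reading these promoters, so the counts are a description. The 7 genes have 8 windows, since H2-DMa has a pair. GATTGG was present in 7 of the 8 (87.5%) and in 16.1% of 32851 promoter windows. The window without it is that of H2-DMa at chr17:34122582-34122881; the other H2-DMa window holds it. The longer string was present in 4 of the 8 and in 0.615% of all windows, and both occurred together in the same 4 and in 0.0822% of all windows. Of these promoters 6 stretches upstream of the start site follow, 5′ to 3′ on the gene's strand, with every match in capitals. They show the shared spacing and how closely H2-DMb1 and H2-DMb2 resemble each other.
H2-Eb1, chr17:34305762-34305822, plus strand: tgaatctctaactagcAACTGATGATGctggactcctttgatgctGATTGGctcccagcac
H2-Ob, chr17:34238802-34238862, plus strand: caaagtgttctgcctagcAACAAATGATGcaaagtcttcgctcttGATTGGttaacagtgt
H2-DMb1, chr17:34153084-34153144, plus strand: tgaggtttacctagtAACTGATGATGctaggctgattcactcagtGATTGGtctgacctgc
H2-DMb2, chr17:34145113-34145173, plus strand: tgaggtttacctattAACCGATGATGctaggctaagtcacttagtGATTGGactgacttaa
H2-Aa, chr17:34287857-34287917, minus strand: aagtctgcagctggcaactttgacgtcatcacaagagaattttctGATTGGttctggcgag
H2-Oa, chr17:34092290-34092350, plus strand: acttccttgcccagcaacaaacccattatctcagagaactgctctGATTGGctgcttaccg
Where both strings occurred, 16 to 19 bases lay between them. GATTGG began 44 to 91 bases before the start site in these 6 stretches. H2-Aa and H2-Oa hold GATTGG without the exact longer string, and no binding was measured here.

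Library totals ran from 8228513 to 17334207 counts, and 3 counts were worth 0.156 to 0.426 CPM (a gene's counts relative to its library's total, after TMM, edgeR's correction for composition). The target gene went against its label: Batf averaged 16.5 ± 2.13 CPM under the control label and 40.3 ± 1.77 CPM under the Batf-deficient one (SD, n = 3 each, adjusted p = 1.70e-05 by edgeR), although scaling on an ILC and T cell panel turned its log2 fold change from 1.29 to -0.97. Group names below are therefore those of the labels. The labelled control libraries also held RNA of other tissues. The summed level of 11 pancreatic acinar markers was 76597 to 80878 CPM there against 1.66 to 2.70 CPM, and that of 17 intestinal epithelial markers was 12490.4 to 13746 CPM against 418 to 459.8 CPM. Sums of 12 ILC3 markers were 1945 to 2110.01 CPM against 12061 to 13734 CPM. These shares differ between the groups beside every result below, and their part in the results was not tested.

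Class II transcripts were scarcer in the libraries labelled Batf-deficient. With TMM factors, all 10 genes were lower there and none was higher by edgeR (quasi-likelihood, threshold 0.05 after adjustment). Of all genes tested 34.1% were lower and 30.2% higher by the same test. The median log2 fold change of the 10 was -2.68, beside 0.02 over all 15261 genes. The groups did not overlap for any of the 10; over all genes 36.5% were lower in the labelled Batf-deficient group without overlap. Together the 10 genes took 0.341% ± 0.0173 of counts in the labelled control and 0.0552% ± 0.00421 in the labelled Batf-deficient libraries (SD, n = 3 each). The count of 10 lower and none higher also held with other tests and samples. Of all genes 34.8% were lower and 29.1% higher with DESeq2 size factors, 34.4% and 28.9% with the DESeq2 Wald test, 33.1% and 31.4% with limma voom, 22.7% and 18.3% without a filter, and 33.4% and 30.2% with a replicate block. Without labelled control replicate 1, 2 or 3 in turn, 33.4%, 33.7% and 34% of genes were lower and 28.7%, 30.4% and 30.6% higher. Without labelled Batf-deficient replicate 1, 2 or 3, 31%, 31% and 33.3% were lower and 21.7%, 22% and 24% higher, and with replicates 1 and 2 averaged 31.3% and 22.1%. In bulk RNA, fewer cells that carry class II and less class II RNA per cell cannot be told apart.

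**Figure D1:**
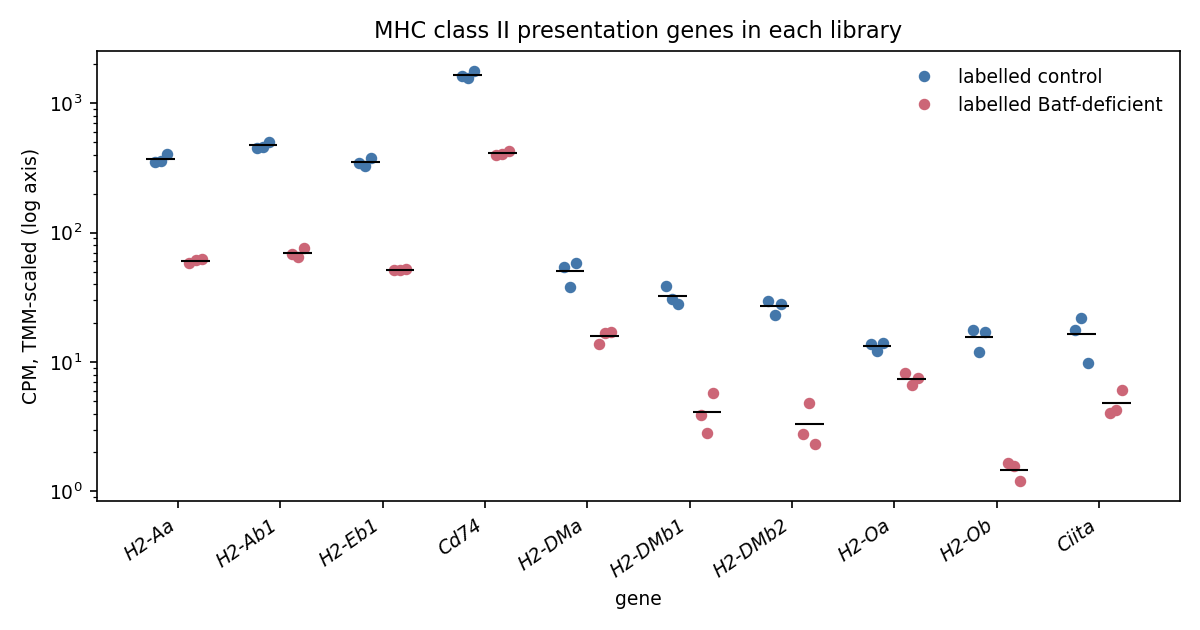
TMM-scaled CPM (log axis) of the 10 class II genes in each of 6 libraries; points are libraries and bars are group means. The labelled control points lie above the labelled Batf-deficient points for every gene, with the narrowest gap at H2-Oa (12.1 CPM against 8.18 CPM).

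The I-A and I-E chains moved almost together. H2-Ab1, the I-A beta chain (ENSMUSG00000073421.6, chromosome 17, 34257689 to 34269419, plus strand, mm10), was at 449.7, 460.3 and 505 CPM in labelled control replicates 1 to 3 and at 68.6, 64.7 and 75.9 CPM in the labelled Batf-deficient ones. Its log2 fold change was -2.76 (SE 0.11, adjusted p = 5.69e-10 by edgeR), a 6.76-fold lower level. All 3 labelled control values were thus several times the highest value of the other group. H2-Aa, the I-A alpha chain (chromosome 17, 34282744 to 34287823, minus strand), was at 353, 358 and 403 CPM against 57.8, 61.8 and 62.5 CPM. Its log2 fold change was -2.61 (SE 0.10, adjusted p = 7.07e-10 by edgeR). H2-Eb1, the I-E beta chain (chromosome 17, 34305867 to 34316674, plus strand), was at 346, 326 and 379 CPM against 51.0, 51.7 and 52.4 CPM, with a log2 fold change of -2.76 (SE 0.10, adjusted p = 4.51e-10 by edgeR). Replicates within a group were close for these 3 chains, and the groups did not overlap. H2-Ea, the partner that C57BL/6 mice lack in working form, had counts in 1 library only, at 0.458 CPM in labelled control replicate 2, and was not tested.

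Cd74, the invariant chain (ENSMUSG00000024610.15, chromosome 18, 60803848 to 60812652, plus strand), was the most abundant of the 10 in every library. It was at 1621, 1556 and 1764 CPM under the control label and 401, 404 and 427 CPM under the other. The log2 fold change was -2.003 (SE 0.09, adjusted p = 2.07e-09 by edgeR), or 4.01-fold. Cd74 therefore made up 55.0% ± 0.142 of the counts of the 10 genes in the labelled control and 65.2% ± 0.268 in the labelled Batf-deficient libraries (SD, n = 3 each). For each H2-Ab1 read there were 3.60, 3.38 and 3.49 Cd74 reads in the labelled control and 5.84, 6.25 and 5.63 in the other libraries. The groups of ratios did not overlap. An exact two-sided permutation test over the 6 libraries gave p = 0.1, the smallest that 3 against 3 allows.

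All 3 genes of H2-DM, which exchanges peptides, were lower. H2-DMa (chromosome 17, 34119541 to 34139101, plus strand) was at 54.3, 38.0 and 58.0 CPM against 13.7, 16.8 and 16.98 CPM, with a log2 fold change of -1.66 (SE 0.19, adjusted p = 9.14e-06 by edgeR). H2-DMb1 (34153072 to 34160230, plus strand) was at 38.4, 30.7 and 28.0 CPM against 3.88, 2.84 and 5.71 CPM, with a log2 fold change of -2.92 (SE 0.26, adjusted p = 1.13e-06 by edgeR). H2-DMb2 (34143307 to 34151555, plus strand) was at 29.7, 23.1 and 28.0 CPM against 2.77, 4.83 and 2.33 CPM, with a log2 fold change of -3.05 (SE 0.28, adjusted p = 1.51e-06 by edgeR). H2-DMb1 and H2-DMb2 are neighbours whose 783 coding bases are 95.9% identical, 32 bases differing, so how reads were shared between them is uncertain. Their order within the labelled Batf-deficient libraries changed from library to library, on 20 to 71 counts each. Relative to H2-Ab1 in the same library, H2-DMa was higher, and the beta chains did not pass. The H2-DMa ratio was 0.121, 0.0826 and 0.115 against 0.2, 0.259 and 0.224.

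The H2-DO chains stood at opposite ends of the 10. H2-Ob, the beta chain (chromosome 17, 34238903 to 34254414, plus strand), had the lowest fold change of them. It was at 17.5, 11.8 and 17.1 CPM against 1.66, 1.56 and 1.21 CPM, which rest on 12, 11 and 15 counts. Its log2 fold change was -3.40 (SE 0.32, adjusted p = 1.77e-06 by edgeR), or 10.6-fold. H2-Oa, the alpha chain (34092340 to 34095234, plus strand), was at 13.8, 12.1 and 13.97 CPM against 8.18, 6.68 and 7.49 CPM. This was the smallest change of the 10, with a log2 fold change of -0.83 (SE 0.23, adjusted p = 0.00813 by edgeR), and 56.1% of its level was left where 9.53% of the H2-Ob level was. The H2-Oa counts rose relative to H2-Ab1, from 0.0306, 0.0262 and 0.0277 to 0.119, 0.103 and 0.0986 reads per H2-Ab1 read, without overlap. The H2-Ob counts fell relative to H2-Ab1, from 0.0390, 0.0257 and 0.0339 to 0.0242, 0.0242 and 0.0159, also without overlap.

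Ciita (ENSMUSG00000022504.10, chromosome 16, 10480059 to 10528418, plus strand) was at 17.8, 21.9 and 9.76 CPM under the control label and 4.02, 4.26 and 6.12 CPM under the other. The labelled control values spread more than 2-fold, from 9.76 to 21.9 CPM, and the groups still did not overlap. The log2 fold change was -1.76 (SE 0.33, adjusted p = 0.000603 by edgeR), or 3.38-fold, a smaller fold than that of the I-A and I-E chains. Relative to H2-Ab1 it rose to 0.0586, 0.0659 and 0.0806 reads per read, from 0.0396, 0.0476 and 0.0193.

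These differences among members were tested in the same edgeR model with library sizes set to the H2-Ab1 counts, a test added after the values were seen. Of the other 9 genes 4 were higher relative to H2-Ab1 and none lower, where 79.9% of all genes tested were higher and 9.57% lower. They were H2-Oa, at a log2 difference of 1.92 (SE 0.24, adjusted p = 2.27e-05 by edgeR), and H2-DMa, at 1.10 (SE 0.20, adjusted p = 0.000457 by edgeR). Ciita was at 0.96 (SE 0.36, adjusted p = 0.0289 by edgeR) and Cd74 at 0.76 (SE 0.10, adjusted p = 2.52e-05 by edgeR). H2-Aa and H2-Eb1 differed from H2-Ab1 by 0.15 (SE 0.11) and 0.00187 (SE 0.11), and neither passed. H2-DMb1, H2-DMb2 and H2-Ob were at -0.21, -0.27 and -0.65, with SE of 0.29, 0.35 and 0.36, and did not pass either. By overlap of the groups alone, 5 of the 9 ratios to H2-Ab1 were higher, 1 (H2-Ob) was lower and 3 overlapped. The share of all genes on that measure was not counted. The exact permutation test of single ratios cannot go below 0.1 in this design.

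Per kilobase of annotated exon (GENCODE M21), Cd74 stood first in both groups, at 981 CPM per kb in the labelled control and 245 CPM per kb in the labelled Batf-deficient libraries. H2-Ab1 and H2-Eb1 followed at 184 and 180.2 CPM per kb, and at 27.1 and 26.6 CPM per kb in the other group; their libraries overlapped in both, so their order is not resolved. H2-Aa came next at 97.8 and 15.99 CPM per kb. H2-DMb1, H2-DMb2 and H2-DMa, at 14.5 to 19.3 CPM per kb, overlapped their neighbours in the labelled control, with H2-Oa below them at 9.43 CPM per kb. In the labelled Batf-deficient libraries H2-Oa (5.29 CPM per kb) and H2-DMa (4.59 CPM per kb) overlapped each other and lay above H2-DMb1 (2.47 CPM per kb), which overlapped H2-DMb2 (1.90 CPM per kb). H2-Ob and Ciita were the lowest in both groups, at 2.88 and 1.73 CPM per kb and at 0.275 and 0.503 CPM per kb. Exon lengths count every annotated isoform, which lowers the value of genes with long minor isoforms.

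The direction of these changes depends on what the libraries are scaled on. Scaling on 20 genes shared by ILCs and T cells, which shifted the median of all genes to -2.24, kept all 10 lower, from -5.66 for H2-Ob to -3.09 for H2-Oa. With that scaling 84.9% of all genes were lower and 2.34% higher. The panel's own 20 genes mixed directions under it, with 3 higher and 8 lower. With library totals (median of all genes -0.36) all 10 were lower, where 42.5% of genes were lower and 20% higher. On the sum of 18 B cell markers (median -0.23) all 10 were again lower, beside 37.5% of genes, with 21.8% higher. That sum was higher in the labelled Batf-deficient libraries although 13 of its 18 genes were lower, since Blk, Cd72 and Ighm were higher, so it does not follow most B cell genes and does not show class II falling relative to B cells. On the sum of 13 dendritic cell markers (median 0.92) 9 were lower, beside 21.1% of genes lower and 55.7% higher, and H2-Oa turned to 0.0733 and did not pass. That sum also mixes directions, with 6 of 11 tested genes lower, Zbtb46 and Xcr1 higher, and Ccr7 among those that did not pass. Ccr7, Zbtb46 and Xcr1 averaged 68.3, 44.9 and 22.6 CPM under the Batf-deficient label, where the whole sum was 166 to 173 CPM. It therefore does not show class II falling relative to dendritic cells. On the sum of 16 macrophage markers (median 3.53) none was lower and 7 were higher, beside 6.38% lower and 83.9% higher among all genes. Under that scaling the members ranged from 0.10 for H2-Ob to 2.67 for H2-Oa, each under the median of all genes. A change of scaling moves all genes by about the same amount, so the place of the 10 below the median gene is 1 observation and not 6.

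**Figure D2:**
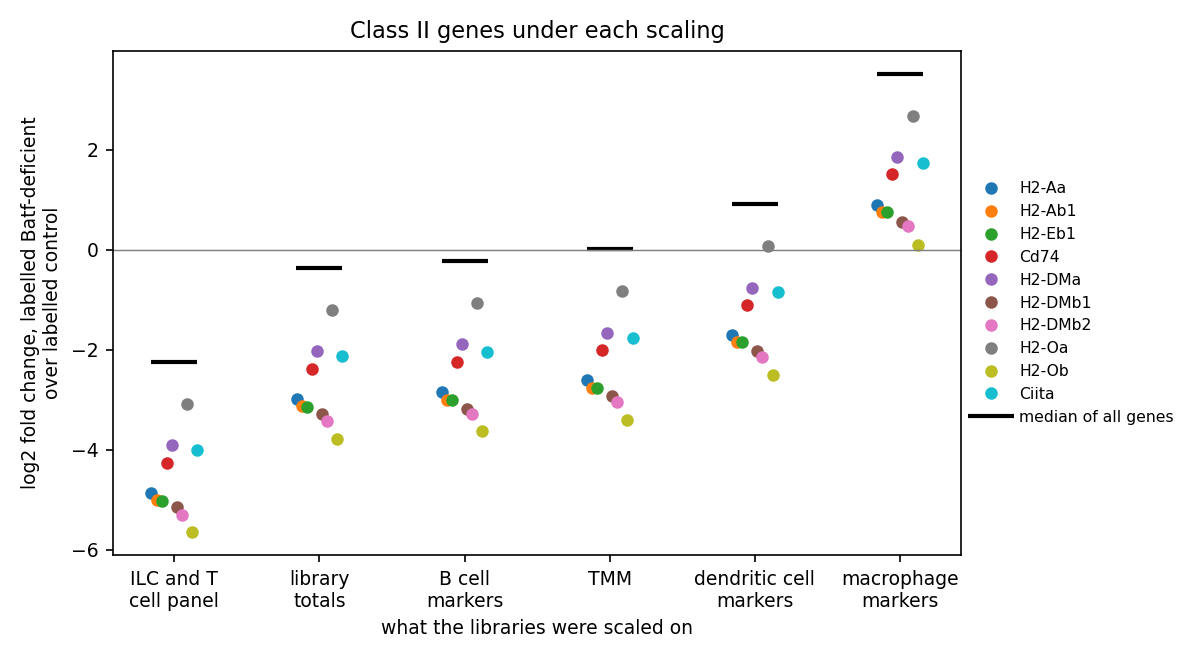
Log2 fold change of the 10 class II genes with libraries scaled in 6 ways (points, 1 colour a gene), and the median of all genes tested under the same scaling (black bar). Points and bar shift together between columns, so their distance is about the same in each by construction; points lie above 0 with dendritic cell scaling (H2-Oa, 0.0733) and macrophage scaling (all 10).

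Cd79a, a chain of the B cell receptor complex, and Csf1r, the growth factor receptor of macrophages, served as references for the other cells that carry class II. Cd79a was at 35.9, 31.5 and 36.9 CPM under the control label and 1.80, 1.28 and 1.53 CPM under the other, with a log2 fold change of -4.49 (SE 0.23, adjusted p = 7.26e-09 by edgeR). Csf1r was at 85.8, 57.6 and 70.5 CPM against 4.57, 4.26 and 3.62 CPM, with a log2 fold change of -4.11 (SE 0.20, adjusted p = 5.16e-09 by edgeR). Both reference genes fell further than any of the 10 members. They rest on only 41 and 108 counts over the 3 labelled Batf-deficient libraries.

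A ratio within a library needs no scaling. For each Cd79a read there were 12.5, 14.6 and 13.7 H2-Ab1 reads in the labelled control and 38.1, 50.6 and 49.6 in the labelled Batf-deficient libraries, a log2 difference of 1.75. Cd74 went from 45.1, 49.3 and 47.8 reads per Cd79a read to 223, 316 and 279, a log2 difference of 2.51. Ratios to Cd79a were higher in the labelled Batf-deficient libraries without overlap for all 10 members, by 1.13 for H2-Ob to 3.68 for H2-Oa on the log2 scale. To Csf1r they were higher without overlap for all 10 as well, by 0.71 for H2-Ob to 3.25 for H2-Oa. The share of all genes with a ratio higher without overlap was not counted, so these counts have no background of the same measure. H2-Ab1 had 5.24, 7.99 and 7.17 reads per Csf1r read against 15, 15.2 and 20.96. Cd74 had 18.9, 27.0 and 25.0 against 87.7, 94.8 and 118. Each of these 20 ratios gave an exact two-sided permutation p = 0.1, the smallest possible, and so none can pass 0.05 before or after adjustment over the 20.

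Most other transcripts behaved likewise toward these references. In edgeR models with library sizes set to Cd79a or to Csf1r, 87.9% and 86% of all genes tested were higher in the labelled Batf-deficient libraries, beside 10 and 9 of the 10 members. None of the 10 was lower, where 3.32% and 4.25% of genes were. The members' count is thus near the background, and the rise of the ratio is not particular to class II. The ratio of Csf1r to Cd79a overlapped between the groups, at 2.39, 1.83 and 1.91 against 2.54, 3.33 and 2.37. Its log2 difference was 0.42 (exact two-sided permutation p = 0.2).

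**Figure D3:**
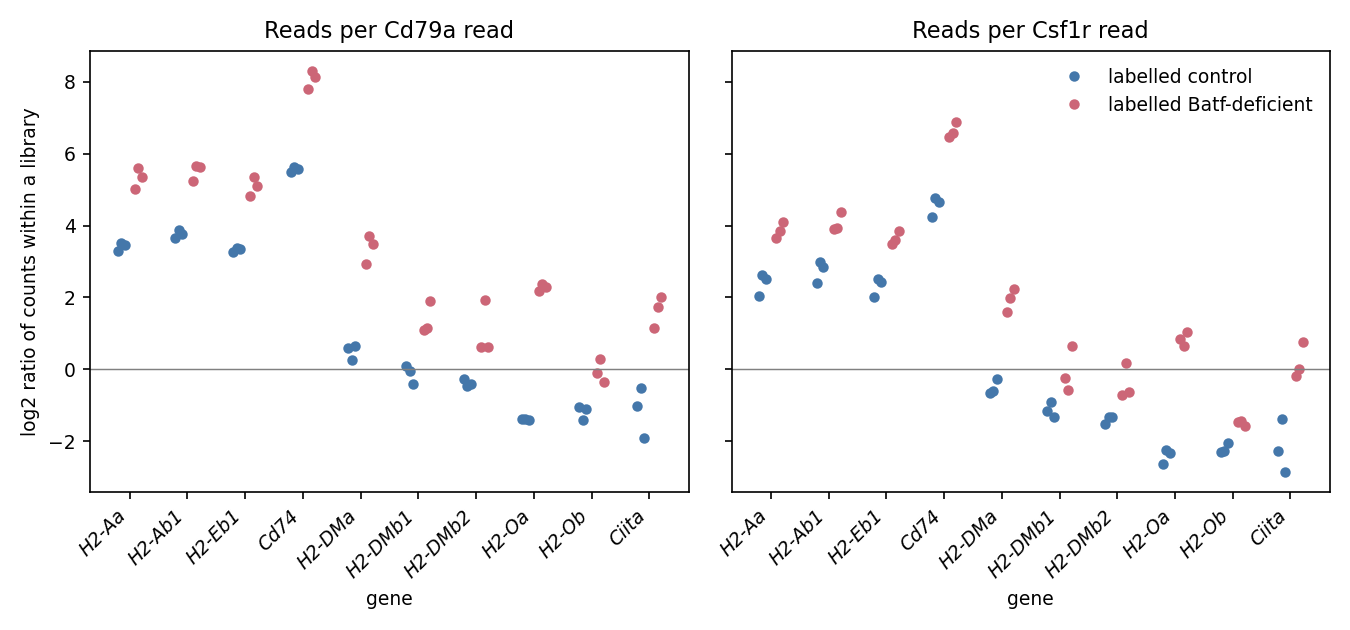
Log2 ratio of each class II gene's counts to those of Cd79a (left) and Csf1r (right) in the same library; points are the 6 libraries. The labelled Batf-deficient points lie above the labelled control points for all 10 genes in both panels, least for H2-Ob (1.13 and 0.71) and most for H2-Oa (3.68 and 3.25). By edgeR with library sizes set to Cd79a or to Csf1r, 87.9% and 86% of all genes tested were higher too.

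Whole marker lists of the candidate cell types moved beside class II as follows. For these and the gene lists after them, the shares over all genes tested were 30.2% higher and 34.1% lower with TMM factors, and 2.34% and 84.9% with the ILC and T cell panel, so that a list mostly lower with the panel is near the background. Of 16 macrophage markers 15 were tested, and 14 were lower and none higher (median log2 fold change -3.80, all 15 lower with the ILC and T cell panel). Their summed level was 613 to 635 CPM in the labelled control against 50.7 to 57.8 CPM, and no member was at 0 in all 3 labelled Batf-deficient libraries. Lyz2, a lysozyme of myeloid cells, was at 206 ± 8.02 against 25.8 ± 2.35 CPM, and the complement chain C1qb at 89.6 ± 10.3 against 3.27 ± 0.797 CPM (SD, n = 3). The 18 B cell markers split into 13 lower, 3 higher and 2 that did not pass (median -3.77); with the panel 17 were lower and 1 higher. The higher ones were Blk, an Src family kinase, Cd72, a lectin-like coreceptor, and Ighm, the IgM heavy chain, at log2 fold changes of 3.04, 1.60 and 0.47. With the panel Blk stayed higher at 0.79, while Cd72 and Ighm turned to -0.66 and -1.78. For this reason the summed level of the B cell list did not fall, at 265 to 322 CPM against 334 to 384 CPM. Of 17 intestinal epithelial markers 16 were lower and 1 did not pass (median -5.22, all 17 lower with the panel).

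Of 13 dendritic cell markers 11 were tested, and 6 were lower and 2 higher (median -1.90; 11 and none with the panel). The higher ones were the transcription factor Zbtb46 and the chemokine receptor Xcr1, at 0.68 and 1.24 with TMM factors and -1.58 and -1.02 with the panel. The integrin Itgax (CD11c) was at 15.6 ± 3.12 against 2.65 ± 0.33 CPM. The lectin receptors Clec9a and Clec10a had no count in any labelled Batf-deficient library, where 3 counts in a library are worth up to 0.426 CPM. In labelled control replicates 1 to 3 Clec10a had 18, 34 and 27 counts. Clec9a had 0, 16 and 66 there, its groups overlapped, and it was not tested. The summed level of the list was 302 to 327 CPM against 166 to 173 CPM. Of the ILC3 markers all 12 were higher (median 2.28; 5 higher and 3 lower with the panel). Il7r is in both the ILC3 list and the panel, so the panel values of that list are partly set by the scaling. Other lymphocyte lists were higher too. Of 9 markers of NCR+ ILC3s and ILC1s 8 were higher and 1 did not pass (median 2.92; 5 higher and 2 lower with the panel), with summed levels of 340 to 357 CPM against 3086 to 3124 CPM. Of 11 T cell markers 10 were higher and 1, Cd8a, lower (median 2.88; 8 and 2 with the panel), with summed levels of 335 to 349.6 CPM against 2547 to 2587 CPM. Cd3e, a chain of the CD3 complex of the T cell receptor, was at 37.4 ± 3.80 against 283 ± 7.96 CPM. The 8 plasma cell markers gave 6 lower and 1 higher, with a median of -3.12 (all 8 lower with the panel), and with summed levels of 12563 to 13179 CPM against 1522 to 1571 CPM. Among 10 CCR6+ lymphoid tissue inducer-like markers 7 were higher and 1 lower (median 0.66; 1 and 8 with the panel). Ccr6 itself was at 51.2 ± 7.37 against 87.2 ± 5.17 CPM, and its log2 fold change of 0.77 turned to -1.49 with the panel. The part of each cell type in the class II values was not tested.

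**Figure D4:**
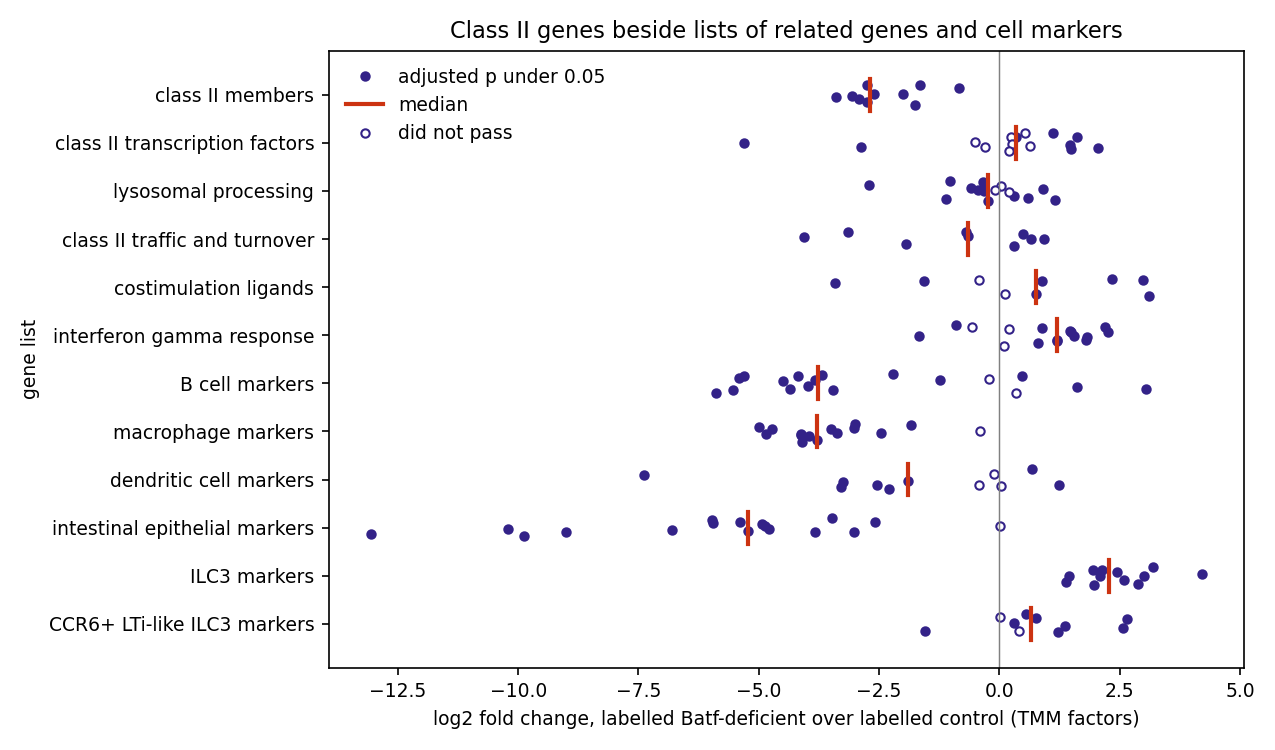
Log2 fold change (labelled Batf-deficient over labelled control, TMM factors) of the tested genes of 12 lists; filled points passed an adjusted p of 0.05, open points did not, and red bars are medians. Class II genes (median -2.68) lie between the dendritic cell list (-1.90) and the B cell and macrophage lists (-3.77 and -3.80), while the transcription factors of class II promoters lie around 0.34. The intestinal epithelial list has the lowest median of the 12, at -5.22. Among lists not drawn, the plasma cell, endothelial and stromal medians were -3.12, -3.11 and -3.96. Those of the NCR+ ILC3 and ILC1 list and the T cell list were 2.92 and 2.88.

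Most factors that act on class II promoters were not lower with TMM factors. Of 15 such genes 6 were higher, 2 lower and 7 did not pass (median 0.34); with the ILC and T cell panel none was higher and 13 were lower. The lower ones were Spi1 (PU.1, a factor of myeloid and B cells), from 19.5 ± 5.69 to 2.69 ± 0.357 CPM, and Pax5 (the B cell identity factor, also in the B cell list), from 9.06 ± 2.59 to 0.20 ± 0.174 CPM. The RFX genes, named here for their role after their values were seen, did not pass with TMM factors. Rfx5 was at 7.98 ± 3.40 and 9.58 ± 0.42 CPM, Rfxap at 14.6 ± 2.07 and 10.2 ± 1.32 CPM, and Rfxank at 19.3 ± 8.97 and 30.1 ± 2.29 CPM. Creb1 (35.9 ± 0.616 and 41.2 ± 3.84 CPM) and Nfyc (38.2 ± 6.04 and 45.9 ± 3.31 CPM) did not pass either. Of the other NF-Y genes, Nfyb (21.4 ± 7.11 and 17.5 ± 1.25 CPM) did not pass. Nfya was higher, at 3.96 ± 0.983 against 12.1 ± 0.264 CPM (log2 fold change 1.60, adjusted p = 0.000405 by edgeR). With the panel Nfya was at -0.65 and did not pass. Irf1, which acts on Ciita downstream of interferon gamma, was higher, at a log2 fold change of 1.46, and turned to -0.80 with the panel.

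Most genes of the wider response to interferon gamma were higher with TMM factors. Of 16 genes, Irf1 among them, 11 were higher and 2 lower (median 1.20), whereas with the panel none was higher and 14 were lower (median -1.06). The receptor chain Ifngr1 was at 498 ± 29.6 against 2277 ± 256 CPM, the GTPase Igtp at 52.2 ± 11.2 against 252 ± 9.08 CPM, and the chemokine Cxcl10 at 90.5 ± 10.2 against 319 ± 48.8 CPM. The lower ones were Ifngr2, the other receptor chain (68.3 ± 2.90 against 21.4 ± 2.85 CPM), and Iigp1. With the panel Ifngr1 and Igtp showed no call, at -0.07 and 0.00494, while Ifngr2 was at -3.94.

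Neighbours of the class II genes on chromosome 17 moved in both directions with TMM factors. Of 7 tested genes of the region, Tap1, Tap2, Psmb8 and Brd2 were higher, Btnl2 was lower, and Psmb9 and H2-Eb2 did not pass. Tap2, a chain of the class I peptide transporter, was at 40.2 ± 7.85 against 143 ± 8.19 CPM, and Psmb8, an immunoproteasome subunit, at 269 ± 18.7 against 691 ± 42.0 CPM. With the panel all 7 were lower, where 84.9% of all genes were. Tap2 was then at -0.42, Psmb8 at -0.90, Brd2 at -1.22, Tap1 at -1.67 and Psmb9 at -1.86, each above the range of the 10 members (-5.66 to -3.09). H2-Eb2, at -3.45, lay inside that range, and Btnl2, at -8.32, below it.

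Genes that prepare antigen and invariant chain in lysosomes changed in both directions. Of 15 tested, 4 were higher, 8 lower and 3 did not pass (median -0.24); all 15 were lower with the panel, where 84.9% of all genes were. Ctss, the cathepsin that trims the invariant chain, was at 124 ± 4.77 and 126 ± 4.10 CPM and did not pass (log2 fold change 0.03, SE 0.10). Ctsb was at 368 ± 14.6 against 453 ± 29.1 CPM and Ctsz at 244 ± 32.5 against 112 ± 7.87 CPM. Lgmn, the asparaginyl endopeptidase, singled out after its values were seen, was at 33.6 ± 4.67 against 5.06 ± 0.987 CPM. Its log2 fold change of -2.71 was the lowest of that list and close in size to that of the I-A chains.

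Genes of class II traffic and turnover gave 4 higher and 5 lower of 9 tested (median -0.66; all 9 lower with the panel). The lower ones were Cd83, which protects class II from removal, Marchf8, a ubiquitin ligase, and the tetraspanins Cd9, Cd63 and Cd81. Cd81 was at 261 ± 12.5 against 29.6 ± 1.71 CPM and Cd63 at 162 ± 7.06 against 9.71 ± 1.83 CPM. Marchf8 was at 28.1 ± 1.49 against 17.8 ± 0.385 CPM. Of 9 tested costimulation ligands 5 were higher and 2 lower (median 0.75; 1 and 6 with the panel). The lower ones were Cd86, at 8.92 ± 1.77 against 0.828 ± 0.131 CPM, and Cd40, at 11.7 ± 6.57 against 4.01 ± 1.70 CPM. Cd80, the other ligand of CD28, was at 2.25 ± 0.966 and 1.71 ± 0.468 CPM and did not pass. Tnfsf9 (4-1BB ligand), at 4.90 ± 2.09 against 39.8 ± 4.59 CPM, was among the higher ones and stayed higher with the panel, at 0.74.

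The genes most like class II in pattern were sought among 8725 genes that are in no list and average 3 or more in log2 CPM. Likeness was the root mean square distance of centred log2 CPM from the mean of H2-Aa, H2-Ab1, H2-Eb1 and Cd74 over 6 libraries. Among the nearest were Spint2 (a serine protease inhibitor), Agrn (agrin), Aldh9a1 (an aldehyde dehydrogenase), Oat (ornithine aminotransferase) and Ppa1 (inorganic pyrophosphatase). Their distances were 0.0700 to 0.0759 on the log2 scale and their log2 fold changes -2.67 to -2.44. Spint2, for example, was at 538, 541 and 569 CPM under the control label and 96.5, 87.2 and 107 CPM under the other. A distance under 0.2 was common, with 131 genes, since the 6 libraries differ mainly between groups.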

How the data were processed

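RNA was measured in 6 mouse libraries, 3 per group, grouped by sample titles, and called biological replicates in the series text. The authors deposited raw counts per gene symbol, on mm10, per the submitters' processing notes. Not given in the sources used here are the aligner, counter, annotation and strand setting. Smart-seq2 carries no molecular identifiers, so the floors given as 3 counts cover counting error only. The SD and SE values include the spread between libraries. A mouse gene name table held 98.2% of the 25075 symbols. Gene coordinates and exon lengths are from GENCODE M21, on the same build. Counts were fitted in R 4.3.3 with edgeR 4.0.16 (filterByExpr by group, minimum count 10; TMM; glmQLFit with robust=TRUE, glmQLFTest; two-sided; group only), adjusted by Benjamini-Hochberg over 15261 genes, threshold 0.05. A fold change above 0 on the log2 scale means a higher level under the Batf-deficient label. DESeq2 1.42.0 and voom in limma 3.58.1 were alternatives. The script was tested on simulated counts in which only a small share of genes was changed. That test does not address a shift as broad as the one between these groups. Named genes were the members, the reference genes, up to 6 members of each other list by mean CPM, genes needed to state small counts, and the 6 nearest in pattern; some genes under this rule are not reported here. Members and lists were chosen with earlier results of these data known. Replicates 1 and 2 under the Batf-deficient label differed least (mean chi-square 2.36 per gene, against 14.8 to 24.2 for other pairs within a group) and were kept as separate samples; with no statement of separate animals, p-values measure only the spread between these samples.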

Additional observations from a re-analysis of the deposited data

How the results depend on the processing

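All 10 class II genes were lower, and none higher, with library totals, DESeq2 size factors, DESeq2's Wald test, limma voom, no filter, the replicate block, each library left out in turn, replicates 1 and 2 of the labelled Batf-deficient group averaged, and scaling on the ILC and T cell panel. They were also lower on the sum of B cell markers, which was carried by Blk, Cd72 and Ighm. The edgeR models scaled on Cd79a and Csf1r alone gave 10 and 9 higher and none lower. In those models 87.9% and 86% of all genes were higher and 3.32% and 4.25% lower, so the members' count was near the background. Over the 13 of these alternatives that scale on no marker list, the highest adjusted p by edgeR, DESeq2 or voom was 0.0345, for H2-Oa, and the next 0.0117, for Ciita. Scaling on macrophage markers left 0 lower and 7 higher, and reversed all 10: H2-Aa to 0.90, H2-Ab1 to 0.75, H2-Eb1 to 0.75, H2-DMa to 1.86, H2-DMb1 to 0.57, H2-DMb2 to 0.48, H2-Oa to 2.67, H2-Ob to 0.10, Cd74 to 1.51 and Ciita to 1.75. Scaling on dendritic cell markers reversed H2-Oa to 0.0733, and the panel reversed Batf to -0.97. Over all genes, 4612 were higher and 5209 lower with TMM factors; 3048 were higher with library totals. The split was 357 higher and 12960 lower with the panel, 12808 and 974 with macrophage markers, and 8504 and 3224 with dendritic cell markers. Leaving out a library gave 3603 to 4705 higher and 5149 to 5451 lower, and 10 members lower each time. The ratio of H2-Eb1 to H2-Ab1 differed by 0.00216 on the log2 scale and ranged from -0.0509 to 0.0554 with a library left out, with -0.0322 without labelled control replicate 2 and -0.0509 without labelled Batf-deficient replicate 2. The replicate numbers are not said to pair the samples, and deviations of same-numbered libraries correlated at 0.00449, 0.0209 and 0.0304; with the replicate block 4603 genes were higher and 5091 lower, and all 10 members stayed lower. H2-Ob, H2-DMb1, H2-DMb2 and Ciita rest on 11 to 76 counts in each labelled Batf-deficient library, which limits their precision.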
